A study of Mus musculus with 18 samples.

Results

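The genes described here are 37 interferon-stimulated genes, the antiviral and immune genes that cells switch on when interferon reaches them. They were taken by symbol from a list of known interferon targets, with earlier results of these data known. All 37 were found among the 55291 gene symbols of the expression tables. The mice were 6-week-old C57BL/6J males with no engineered allele named in the labels. Every mouse received AAV_DJ-GfaABC1D-EGFP-Rpl10a, a virus that tags ribosomes with EGFP under the astrocyte promoter GfaABC1D, in the CA3 region of the right hippocampus. The AAV control group had this virus alone, with RNA taken 2 weeks later. The KA group was given kainic acid, a glutamate receptor agonist (50 nL at 20 mM), in the right dentate gyrus 2 weeks after the virus, with RNA taken 14 days after KA, as a model of mesial temporal lobe epilepsy. The PBS group was given saline after the virus, and its timing was not given in the sources used here. Time since the virus and KA treatment cannot be told apart between the KA and AAV control groups. Each group had 3 samples, numbered #1 to #3, and for each the right hippocampi of several mice, 3 to 4, were combined. Each of the 9 homogenates gave an IP library, from anti-GFP immunoprecipitation of tagged ribosomes, and an input library, from the whole homogenate.

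Interferons bind receptors at the cell surface, and the receptor kinases then activate transcription factors. Type I interferons act on their target genes largely through interferon-stimulated response elements (ISRE), and interferon gamma largely through gamma-activated sites (GAS). The genes switched on in this way include RNA sensors, blocks on virus entry and replication, large GTPases that attack membranes around intracellular microbes, and chemokines that call in lymphocytes, and astrocytes and microglia can both respond.

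The 18 libraries held 7991681 to 16032180 counts (median 10313125). Run 1 held #1 and #2 of KA and AAV control and run 2 held #3 of both, while run 3 held the whole PBS group, so the PBS group and its run cannot be told apart. Astrocyte markers, 9 genes fixed as a list, summed to 5565 to 10960 FPKM (fragments scaled to transcript length and library depth) in the IP libraries and 462 to 1242 in input. All 9 were higher in IP than in input in each group. The 12 markers of microglia and macrophages, none of which was at 0, summed to 14.98 to 69.0 FPKM in the 9 IP libraries and 134 to 2693 in input.

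One library stood apart from its group. The summed level of the 37 genes was 1807, 1899 and 2357 FPKM in the KA IP libraries, and 216, 227 and 361 FPKM in the PBS IP libraries. In the AAV control IP libraries the sum was 267 and 229.8 FPKM in #1 and #2 but 1925 FPKM in #3. The AAV control #3 sum was thus inside the range of the KA group, and the AAV control mean of 807 ± 968 FPKM (SD, n = 3) described none of its libraries. The input library of the same homogenate was also the highest of its group, at 217 FPKM against 101 and 80.9 FPKM in #1 and #2, but it stayed below the KA input libraries, which held 712, 647 and 712 FPKM. PBS input held 92.5, 99.5 and 107 FPKM. Results that rest on AAV control #3 are therefore given with and without it where both were computed.

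**Figure D1:**
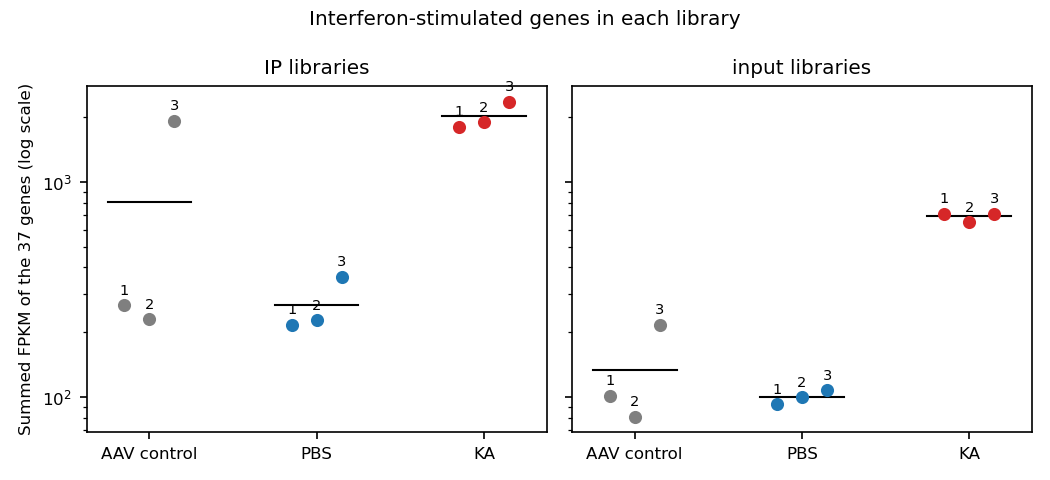
Summed FPKM of the 37 interferon-stimulated genes in each of the 18 libraries (log scale), with IP libraries on the left and input on the right and one point per library. The 3 KA libraries lie above all PBS libraries in both panels, and AAV control #3 lies with the KA libraries in IP (1925 FPKM) but between the groups in input (217 FPKM).

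The upstream sequence of some of the genes is shown first, since it carries the elements named above. RefSeq promoter windows of GRCm38.p6, from 250 bases before to 50 bases after the transcription start, were found for 28 of the 37 genes. Dhx58, Zbp1, Usp18, Mx1, Parp9, Parp14, Iigp1, Ifi27 and Rtp4 had no entry. The core letters of an ISRE, GAAA followed after any 2 bases by GAAA, were found on either strand in 18 of these 28 genes (64.3%), against 3.99% of all 27025 genes with a window. The letters TTCNNNGAA, the core of a GAS, were found in 5 of 28 (17.9%), against 9.55% of all genes. All 5 interferon-inducible GTPases with a window held the ISRE letters and 2 held the GAS letters, and among 11 effectors with a window 8 held the ISRE letters and 3 the GAS letters. Isg15 is shown for its 3 overlapping ISRE matches, Ifit3 as an effector with a large KA difference, and Oas1a, Bst2, Gbp7 and Igtp as genes with both kinds of match. Each line is the 150 bases upstream of the start, read 5′ to 3′ on the gene's strand, and capitals mark a match to either motif on either strand.
Isg15 (chr4:156200819-156200968, minus strand): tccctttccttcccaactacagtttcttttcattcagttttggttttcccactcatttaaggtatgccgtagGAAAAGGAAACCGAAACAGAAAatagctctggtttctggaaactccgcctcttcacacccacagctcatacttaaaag
Ifit3 (chr19:34583379-34583528, plus strand): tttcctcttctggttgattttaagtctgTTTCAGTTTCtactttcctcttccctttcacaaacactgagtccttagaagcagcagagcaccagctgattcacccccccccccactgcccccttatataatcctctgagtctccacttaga
Oas1a (chr5:120907526-120907675, minus strand): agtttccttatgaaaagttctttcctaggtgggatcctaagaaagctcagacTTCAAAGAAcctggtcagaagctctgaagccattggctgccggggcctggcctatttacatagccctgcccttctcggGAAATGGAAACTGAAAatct
Bst2 (chr8:71537473-71537622, minus strand): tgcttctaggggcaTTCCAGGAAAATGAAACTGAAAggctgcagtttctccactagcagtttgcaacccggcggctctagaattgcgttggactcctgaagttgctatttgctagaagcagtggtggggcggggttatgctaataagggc
Gbp7 (chr3:142530186-142530335, plus strand): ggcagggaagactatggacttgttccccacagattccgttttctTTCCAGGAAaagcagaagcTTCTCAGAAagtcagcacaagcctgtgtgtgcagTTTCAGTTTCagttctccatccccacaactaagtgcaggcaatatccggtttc
Igtp (chr11:58199406-58199555, plus strand): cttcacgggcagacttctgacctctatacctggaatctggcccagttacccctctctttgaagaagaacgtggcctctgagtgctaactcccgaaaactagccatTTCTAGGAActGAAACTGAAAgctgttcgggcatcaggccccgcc
The matches describe letters only. The 2 kinds of match overlap in Bst2, lie next to each other in Igtp, and stand apart in Oas1a and Gbp7.

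All 37 genes are protein coding in the GENCODE annotation of GRCm38, the build the authors aligned to. Several lie together. Ifit3 (chr19:34583531-34588731), Ifit3b (chr19:34607970-34613401) and Ifit1 (chr19:34640871-34650009) form a run on the plus strand, as do Gbp7 (chr3:142530342-142550149), Gbp3 (chr3:142560026-142573209) and Gbp2 (chr3:142620602-142638008). Rsad2 (chr12:26442746-26456452) and Cmpk2 (chr12:26469204-26479837) lie head to head. Isg15 (chr4:156199424-156200818), Bst2 (chr8:71534255-71537456), Ifitm3 (chr7:141009586-141010770) and Cxcl10 (chr5:92346638-92348889) are on the minus strand and Igtp (chr11:58199556-58207591) on the plus strand. Some exons are shared with another gene: 8.01% of the exonic bases of Igtp with Irgm2, 11.3% of those of Gbp7 and 13.9% of those of Rtp4 with a predicted gene on the same strand, and 5.91% of those of Cxcl10 with Art3 on the opposite strand. Reads in these stretches cannot be assigned with certainty.

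KA and PBS were compared within IP to ask how ribosome-bound RNA of CA3 astrocytes differed after KA. The interferon-stimulated genes were higher in KA almost throughout. Of the 18 that exceeded 1 FPKM in all 6 libraries, 17 rose and 1, Stat2, fell, where 18.2% of 9847 genes tested rose and 18.9% fell. With every gene of at least 10 counts in the fit tested, all 37 were measured and 35 rose, against 15.1% of 22833 genes; Stat2 and Dhx58 did not pass. Every KA library exceeded every PBS library in 35 of 37, all but Stat2 and Ifih1, against 14.3% of all genes. The median ratio of mean FPKM, KA to PBS, was 7.32 over the 37 genes and 0.907 over 13262 genes with a mean above 1 FPKM.

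Isg15, a ubiquitin-like protein that is coupled to other proteins during the antiviral response, was among the largest changes. It held 85.8, 109 and 85.8 FPKM in KA and 3.02, 2.99 and 6.504 FPKM in PBS, a log2 fold change of 4.53 ± 0.27 (SE, adjusted p = 3.98e-06). Usp18 removes ISG15 from its targets and damps the interferon receptor, and it was below the 1 FPKM filter in 2 PBS libraries. Its level was 9.34, 10.3 and 6.9 FPKM in KA against 0.492, 0.2197 and 1.502 in PBS, and it rose by 3.91 ± 0.35 (SE, adjusted p = 1.49e-07) on the log2 scale without that filter. Every KA library lay far above every PBS library for both members of the ISG15 system.

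Among the factors that carry the signal, Irf9, a DNA-binding interferon regulatory factor, held 4.29, 3.64 and 3.23 FPKM in KA and 1.34, 1.56 and 2.53 FPKM in PBS. It rose by 1.06 ± 0.23 (SE, adjusted p = 0.00506), with no overlap. Irf7, which drives type I interferon genes, held 3.64, 3.25 and 3.12 FPKM in KA and 0.165, 0.464 and 0.454 FPKM in PBS. It rose by 3.47 ± 0.34 (SE, adjusted p = 5.03e-07) without the filter. Stat2 went the other way, at 1.59, 1.59 and 1.16 FPKM in KA and 1.59, 3.04 and 3.09 FPKM in PBS. PBS #1 lay level with KA #1 and #2, so the groups met, and the fall of Stat2 was -0.84 ± 0.28 (SE, adjusted p = 0.0364). The call was lost with limma-voom, without the filter (adjusted p = 0.0858), and without any one of KA #1, #2 and #3 or PBS #2 and #3.

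The sensors detect foreign or misplaced nucleic acid. All 4 were below 1 FPKM in PBS libraries, so their log2 fold changes are from the fit without the filter. Ddx58, which encodes RIG-I, held 0.708 to 1.15 FPKM in PBS and 1.55 to 2.25 FPKM in KA and rose by 1.44 ± 0.24 (SE, adjusted p = 0.000173). Ifih1, which encodes MDA5, rose by 0.94 ± 0.33 (SE, adjusted p = 0.038), although KA #3 at 0.391 FPKM lay inside the PBS range of 0.322 to 0.572 FPKM. Dhx58, a related helicase, differed by 0.93 ± 0.41 (SE, adjusted p = 0.0904). Zbp1, a sensor of Z-form nucleic acids, had 31, 37 and 34 reads in KA and 0, 0 and 3 in PBS, too few in PBS for a fold change. The median KA to PBS ratio of the 4 sensors was 1.97, with Zbp1 far above the other 3.

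The 12 effectors, the genes that act on viruses directly, had a median KA to PBS ratio of 9.21. Ifitm3, which blocks virus entry at endosomes, was the most abundant of the 37 genes, at 858, 924 and 1557 FPKM in KA and 108, 120.0 and 212 FPKM in PBS. It rose by 2.98 ± 0.35 (SE, adjusted p = 0.000232). Bst2, which tethers budding virus to the membrane, held 232, 224 and 189 FPKM in KA and 11.2, 11.9 and 22.1 FPKM in PBS and rose by 3.86 ± 0.24 (SE, adjusted p = 4.8e-06). For both genes the lowest KA library was well above the highest PBS library.

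The IFIT proteins bind viral RNA, and Ifit3 and Ifit3b are near-identical neighbours on chromosome 19. Ifit3 held 111, 114 and 83.4 FPKM in KA and 10.6, 6.72 and 14.96 FPKM in PBS and rose by 3.28 ± 0.24 (SE, adjusted p = 1.15e-05). Ifit3b held 35.7, 37.1 and 34.03 FPKM in KA and 4.84, 3.11 and 6.76 FPKM in PBS and rose by 2.89 ± 0.22 (SE, adjusted p = 1.65e-05). Of the distinct 50-base words of Ifit3, 51.2% also occur in Ifit3b, so the split of reads between the pair is uncertain. Ifit1 held 16.5, 13.01 and 7.93 FPKM in KA and 0.611, 0.264 and 1.29 FPKM in PBS. Its rise was 4.39 ± 0.33 (SE, adjusted p = 1.4e-08) without the filter. KA #3 had the lowest level of the KA group for each of these genes, and it still exceeded every PBS library.

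Oas1a and Oasl2 belong to the oligoadenylate synthetase family, which is tied to RNA decay in infected cells. Oas1a held 9.77, 9.63 and 6.63 FPKM in KA and 0.0993, 0.0464 and 0.556 FPKM in PBS, where it rested on 3, 1 and 11 reads, and it shares 57.6% of its 50-base words with Oas1g, so its count is uncertain. Oasl2 held 0.563 to 1.02 FPKM in PBS and 6.07 to 7.97 FPKM in KA. It rose by 3.41 ± 0.22 (SE, adjusted p = 1.84e-09) without the filter. Rsad2, the antiviral enzyme viperin, and Cmpk2, a mitochondrial nucleotide kinase, are neighbours on chromosome 12. Rsad2 held 0.687 to 0.901 FPKM in PBS and 2.59 to 4.56 FPKM in KA. It rose by 2.48 ± 0.26 (SE, adjusted p = 1.04e-06) without the filter. Cmpk2, at 2.02 to 3.27 FPKM in PBS and 3.79 to 7.03 FPKM in KA, rose by 1.13 ± 0.23 (SE, adjusted p = 0.00345), the smallest change among the 12 effectors. Trim30a, a RING-domain protein, held 0.362 to 1.14 FPKM in PBS and 6.86 to 8.11 FPKM in KA. It rose by 3.49 ± 0.27 (SE, adjusted p = 1.67e-08) without the filter. Samd9l and Mx1 stayed at or under 1.09 FPKM in each IP library of KA and PBS and also passed without the filter.

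Parp9 and Dtx3l form a complex that modifies proteins with ADP-ribose and ubiquitin, and Parp14 is a related enzyme. The 3 genes had a median KA to PBS ratio of 1.92. Each was below 1 FPKM in PBS libraries, so the log2 fold changes are from the fit without the filter. Dtx3l held 0.826 to 1.003 FPKM in PBS and 1.43 to 2.02 FPKM in KA and rose by 1.14 ± 0.26 (SE, adjusted p = 0.00234). Parp9 rose by 1.14 ± 0.28 (SE, adjusted p = 0.004) and Parp14 by 1.53 ± 0.30 (SE, adjusted p = 0.000835). Parp9 and Dtx3l overlap on opposite strands over 9.4% and 8% of their exonic bases, so part of their reads cannot be assigned without strand information.

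The interferon-inducible GTPases coat and disrupt the vacuoles of intracellular microbes, and all 6 rose. Gbp2 held 11.8, 15.4 and 10.2 FPKM in KA and 1.26, 1.11 and 1.78 FPKM in PBS and rose by 3.18 ± 0.22 (SE, adjusted p = 9.49e-06). Gbp3 rose by 3.13 ± 0.23 (SE, adjusted p = 1.34e-05) and Gbp7, the neighbour of both on chromosome 3, by 1.25 ± 0.19 (SE, adjusted p = 0.000923). Igtp held 9.51, 13.3 and 9.25 FPKM in KA and 1.79, 2.99 and 2.83 FPKM in PBS, a rise of 2.08 ± 0.26 (SE, adjusted p = 0.000325). Irgm1, which regulates other GTPases of its family, held 17.4, 17.5 and 17.6 FPKM in KA and 2.95, 3.65 and 4.49 FPKM in PBS and rose by 2.26 ± 0.19 (SE, adjusted p = 2.84e-05). Iigp1, an effector GTPase of the same family, was below the filter in PBS and rose by 3.53 ± 0.33 (SE, adjusted p = 2.74e-07) without it. In each of the 6 genes the KA and PBS libraries did not overlap.

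The T cell chemokine Cxcl10, ligand of CXCR3, had the largest log2 fold change of the 18 genes above the filter. It held 64.01, 76.3 and 73.8 FPKM in KA and 2.52, 1.94 and 3.81 FPKM in PBS, a log2 fold change of 4.73 ± 0.24 (SE, adjusted p = 1.53e-06). Ifi27, a small hydrophobic protein, held 216, 206 and 161 FPKM in KA and 38.6, 42.9 and 42.98 FPKM in PBS and rose by 2.22 ± 0.19 (SE, adjusted p = 3.33e-05). The PBS level of Ifi27 was exceeded, among the 37 genes, by that of Ifitm3. Lgals3bp, a secreted glycoprotein, was almost level within PBS (9.87, 9.902 and 9.84 FPKM) and rose by 1.49 ± 0.18 (SE, adjusted p = 0.000236). Rtp4, a receptor chaperone, rose by 2.92 ± 0.27 (SE, adjusted p = 4.89e-05) and Xaf1, a proapoptotic protein, by 2.05 ± 0.26 (SE, adjusted p = 0.0003). Ifi44 and Slfn2 were below the filter and rose by 4.07 ± 0.33 (SE, adjusted p = 3.39e-08) and 3.60 ± 0.54 (SE, adjusted p = 6.57e-05) without it. PBS #3 was the highest PBS library in 32 of the 37 genes, and KA #3 the lowest KA library in 27, with no share of all genes beside these counts.

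**Figure D2:**
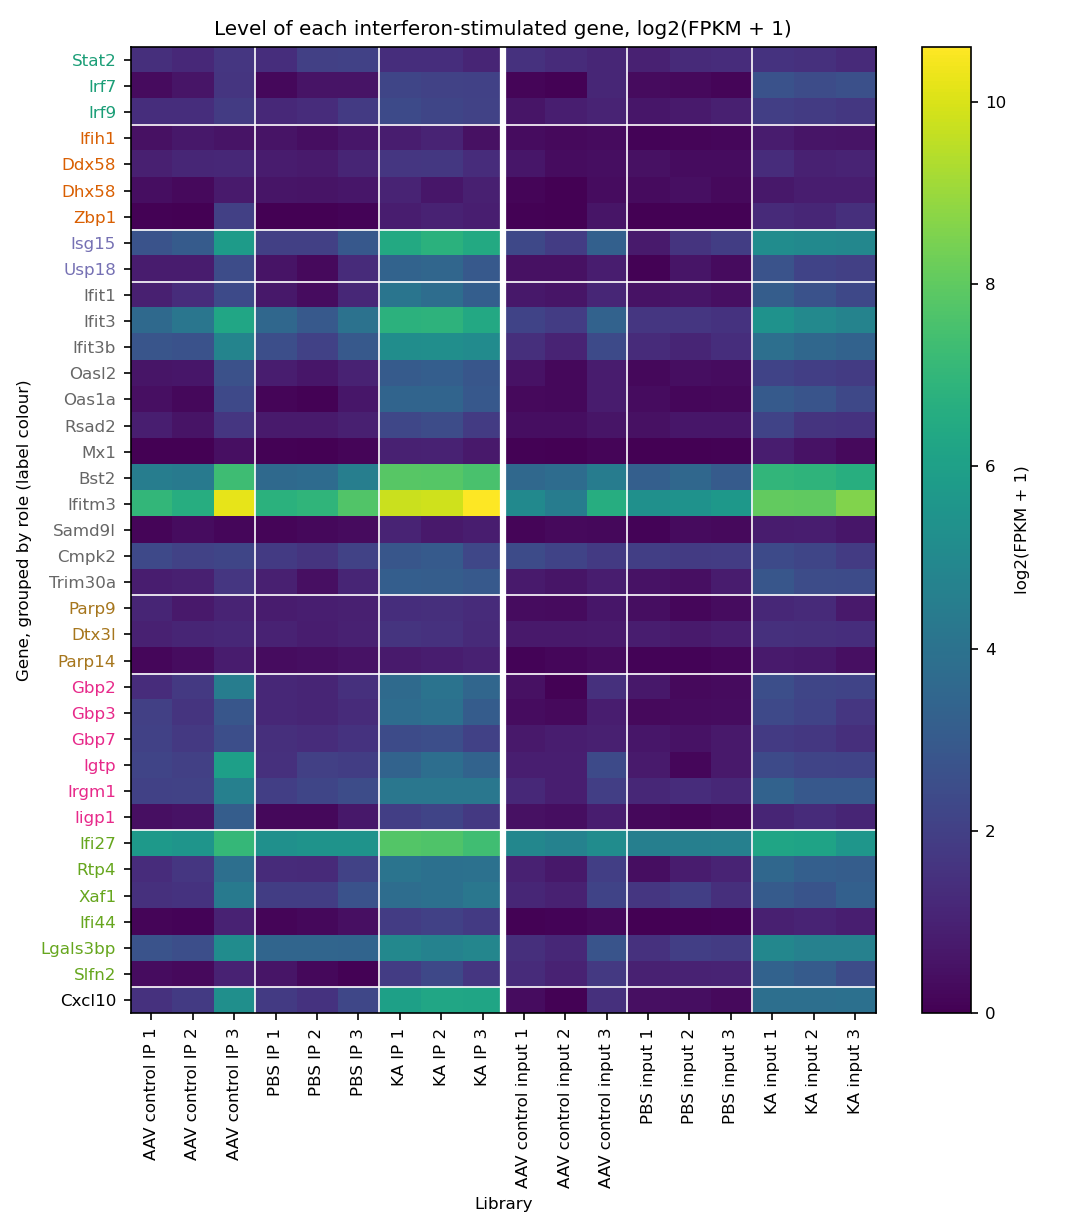
Level of each of the 37 genes in each of the 18 libraries as log2(FPKM + 1), with libraries in columns by group and fraction and genes in rows by role. In IP, brighter cells are higher levels, and the KA columns are brighter than the PBS columns in 35 of 37 rows, with the AAV control #3 column unlike those of #1 and #2.

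Oligodendrocyte markers moved with this comparison. Their sum over 6 genes was 1279 to 2439 FPKM in KA IP and 277 to 549.5 FPKM in PBS IP. Microglia markers summed to 39.8 to 69.0 FPKM in KA IP and 17.8 to 29.5 FPKM in PBS IP. The part of either in the interferon-stimulated genes was not tested.

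KA and AAV control within IP is the comparison with the virus alone, and it used the same KA libraries as the comparison with PBS. Its outcome turned on AAV control #3. With all 6 libraries, 2 of the 18 genes above the filter rose, against 10.4% of 9729 genes, and none fell. These were Gbp3, by 1.60 ± 0.43 (SE, adjusted p = 0.0363), and Irf9, by 0.97 ± 0.26 (SE, adjusted p = 0.0368). Gbp3 held 12.4, 13.9 and 7.57 FPKM in KA and 2.97, 1.99 and 6.07 FPKM in AAV control, and Irf9 held 4.29, 3.64 and 3.23 and 1.58, 1.63 and 2.55 FPKM. Both were genes in which AAV control #3 stayed below every KA library. Without the filter 12 of 37 rose, against 8.11% of 21201 genes. Every KA library exceeded every AAV control library in 23 of 37, against 13.2% of all genes.

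Without AAV control #3, 17 of the 18 genes rose, against 17.1% of 9953 genes, and without the filter 35 of 37 rose, against 13.9%, with Stat2 and Ifih1 not passing. Isg15 is an example. It held 85.8, 109 and 85.8 FPKM in KA and 5.52, 7.14 and 55.96 FPKM in AAV control, a log2 fold change of 1.98 ± 0.82 (SE, adjusted p = 0.13) with #3 and 3.99 ± 0.21 (SE, adjusted p = 4.28e-05) without it. Cxcl10 held 1.82, 2.46 and 37.9 FPKM in AAV control and differed by 2.29 ± 1.05 (SE, adjusted p = 0.168) with #3 and 5.17 ± 0.24 (SE, adjusted p = 3.51e-05) without it. For Bst2, at 21.9, 19.1 and 156 FPKM in AAV control, the values were 1.67 ± 0.79 (SE, adjusted p = 0.179) and 3.50 ± 0.17 (SE, adjusted p = 3.51e-05). Igtp changed sign: it held 3.52, 3.05 and 61.9 FPKM in AAV control, and its log2 fold change of -1.16 ± 1.06 (SE, adjusted p = 0.489) became 1.81 ± 0.22 (SE, adjusted p = 0.000799). In all 4 genes AAV control #1 and #2 lay near each other and below every KA library.

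Same-numbered KA and AAV control samples shared a sequencing run and deviated together, and with the sample number as a block 10 of the 18 genes rose, against 17.3% of all genes. With run as a covariate 14 rose, against 20.1%. Within run 1, the 2 KA and 2 AAV control libraries alone gave 17 of 18, against 23.7% of 10474 genes. Run 2 held 1 KA and 1 AAV control IP library, which allows no test. The count also moved with the other libraries: it was 0 without KA #1, KA #2 or AAV control #2 and 1 without KA #3 or AAV control #1.

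The 37 genes were not all high in AAV control #3 to the same degree. In IP it exceeded both other AAV control libraries in 33 of the 37 genes, where this held for 34.6% of 13275 genes with a mean above 1 FPKM. The median ratio of #3 to the mean of #1 and #2 was 4.64, with Mx1, which had no read in #1 and #2, set at a floor of 3 counts per library, and the median over 13221 genes was 0.887. Against the KA libraries of IP, #3 was above all 3 in 9 genes, below all 3 in 24 and among them in 4. For all genes, #3 was above the 3 KA libraries in 36.9%, so the 9 of 37 is not a high share. The share of all genes below all 3 is not given, so the 24 has no background beside it.

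The roles differed in this respect. Of the 6 GTPases, #3 was above every KA library in 5, with a median ratio to the KA mean of 1.52. Igtp reached 61.9 FPKM in #3, which was 5.78 times the KA mean, against 3.52 and 3.05 FPKM in #1 and #2. Iigp1 reached 7.75 FPKM, 2.66 times the KA mean, against 0.352 and 0.413 FPKM. Gbp2 reached 21.4 FPKM, 1.72 times the KA mean, and Gbp3, at 6.07 FPKM, was the one GTPase below the KA libraries. Of the 12 effectors, none was above every KA library in #3, against 36.9% of all genes, and 11 were below every one, with a median ratio of 0.632. For the 11, no share of all genes is given. Trim30a reached 0.293 of the KA mean, Ifit1 0.332 and Oas1a 0.473. Samd9l was at 0.144 FPKM in #3, between #1 and #2 (0.0994 and 0.289 FPKM). Zbp1 stood out among the sensors, with 139 reads and 3.07 FPKM in #3 against 1 and 0 reads in #1 and #2 and 0.789, 1.01 and 0.879 FPKM in KA. These are values of 1 library, and no test was made of them.

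**Figure D3:**
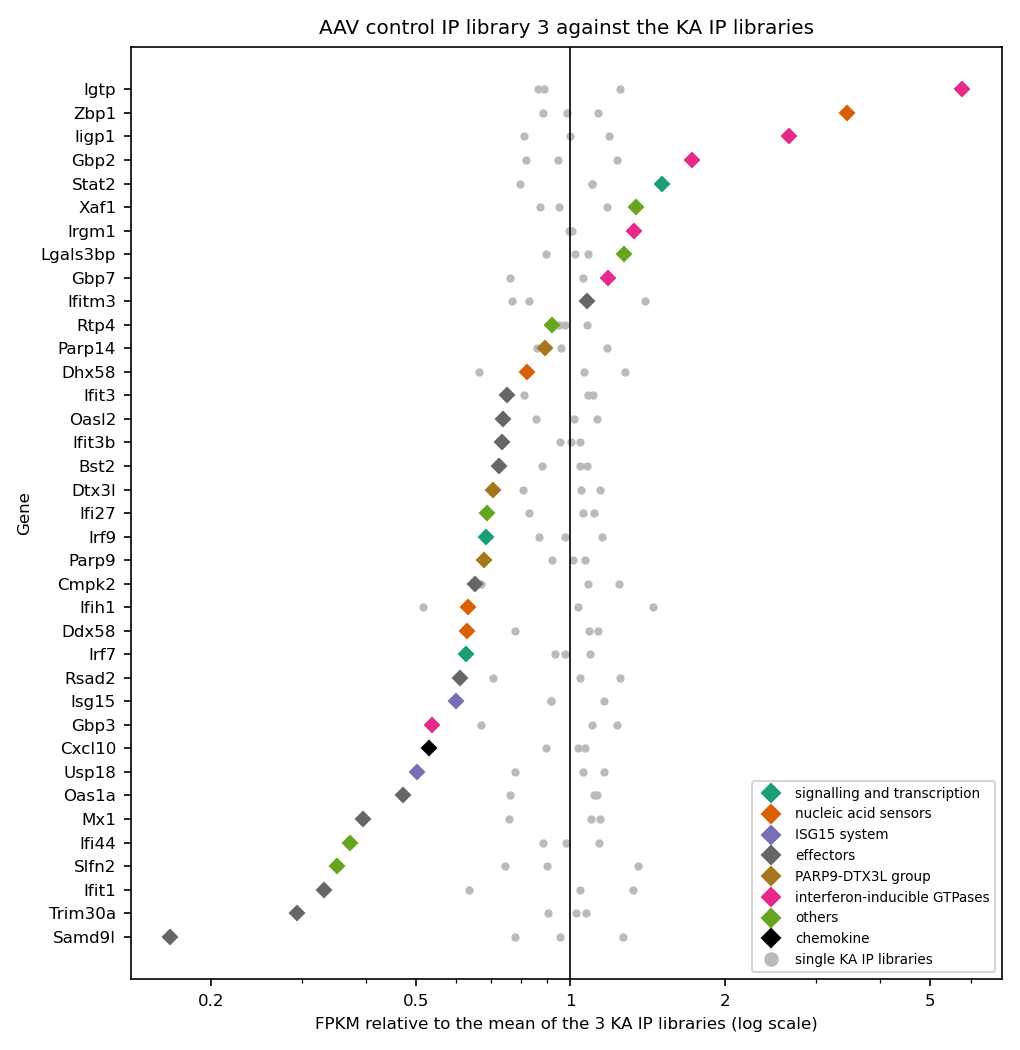
FPKM of each of the 37 genes in AAV control IP library #3, relative to the mean of the 3 KA IP libraries (log scale), as diamonds coloured by role, with the single KA libraries as grey points. Igtp (5.78), Zbp1 (3.45) and Iigp1 (2.66) lie at the high end and Samd9l (0.167) at the low end.

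Cell type markers were read in the same library. The 12 microglia markers summed to 24.0 FPKM in its IP library, the highest of the AAV control group (16.7 and 14.98 FPKM in #1 and #2) and inside the range of the PBS IP libraries (17.8 to 29.5 FPKM). The 8 lymphocyte markers summed to 3.09 FPKM in #3 and to 3.345 and 2.74 FPKM in #1 and #2, most of it from Trac. Of these 8, 1 was at 0 in #3 and 7 and 5 were at 0 in #1 and #2, and Nkg7, at 0, 0 and 0.342 FPKM, was among those seen in #3 alone. The 6 oligodendrocyte markers summed to 1037 FPKM in #3 against 247 and 316 FPKM in #1 and #2. The part of these cell types in the values of #3 was not tested.

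PBS and AAV control in IP compare saline injection with the virus alone. None of the 18 genes above the filter passed in either direction, where 0% of 10667 genes rose and 0% fell. By edgeR 9 of the 18 had an unadjusted p under 0.05, by DESeq2 4 and by limma-voom 2, and neither of these tools called one of them. Over all genes edgeR gave such a p for 1153 of 10667, and the number for the other tools is not given. Isg15 held 3.02, 2.99 and 6.504 FPKM in PBS and 5.52 and 7.14 FPKM in AAV control #1 and #2. For 27 of the 37 genes the PBS range overlapped that of AAV control #1 and #2, and the share of all genes for which this held is not given. Without #3, Lgals3bp and Xaf1 rose in PBS, by 1.03 ± 0.21 (SE, adjusted p = 0.0225) and 1.06 ± 0.28 (SE, adjusted p = 0.0431), against 4.89% of 10951 genes. Lgals3bp held 9.87, 9.902 and 9.84 FPKM in PBS and 5.53 and 4.81 FPKM in #1 and #2, and Xaf1 held 2.82, 2.76 and 5.36 and 1.75 and 1.896 FPKM. In input, 0 of 7 genes passed in either direction, against 0% of 10924 genes higher and 0% lower. There, 2 of the 7 had an unadjusted p under 0.05 by edgeR, 2 by DESeq2 and 0 by limma-voom, and neither of these tools called one of them. For all genes in input, edgeR gave such a p for 901 of 10924. Without AAV control #3 in input, Ifitm3 and Lgals3bp rose in PBS, by 0.83 ± 0.15 (SE, adjusted p = 0.000722) and 0.82 ± 0.25 (SE, adjusted p = 0.0203). The share of all genes that rose in this fit is not given, so the 2 of 7 has no background beside it.

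In input, the RNA of the whole hippocampus, the genes were also higher in KA. Against PBS, 8 of the 9 genes above the filter rose, against 15.5% of 10849 genes, and Cmpk2 differed by 0.34 ± 0.17 (SE, adjusted p = 0.168). Without the filter 35 of 37 rose, against 12.6% of 21645 genes, and Stat2 and Cmpk2 did not pass. Every KA library exceeded every PBS library in 35 of 37, against 18.4% of all genes. The median KA to PBS ratio was 7.63 in input, against 1.02 over 13251 genes. In bulk RNA of this kind, more cells of a type and more RNA per cell cannot be told apart.

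Bst2 held 127, 119 and 99.8 FPKM in KA input and 8.27, 10.6 and 7.29 FPKM in PBS input and rose by 3.70 ± 0.15 (SE, adjusted p = 1.12e-07). Ifit3 held 41.7, 30.9 and 26.1 and 2.17, 2.24 and 1.92 FPKM and rose by 3.94 ± 0.19 (SE, adjusted p = 2.11e-07). Lgals3bp held 28.7, 24.6 and 24.5 and 1.85, 2.905 and 2.62 FPKM and rose by 3.38 ± 0.14 (SE, adjusted p = 1.31e-07), the third largest of the 8. Ifi27 had the smallest rise of the 8, at 1.44 ± 0.14 (SE, adjusted p = 3.51e-05), with 22.7 to 23.9 FPKM in PBS and 46.9 to 74.4 FPKM in KA. Irf7, below the filter in PBS, held 5.398, 4.45 and 5.04 FPKM in KA input and 0.237, 0.197 and 0.104 FPKM in PBS input, and rose by 4.73 ± 0.27 (SE, adjusted p = 1.01e-08) without it. For these 5 genes every KA input library was above every PBS input library.

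Against the AAV control group in input, 7 of 10 genes above the filter rose, against 3.54% of 10809 genes: Isg15, Ifit3, Ifit3b, Bst2, Ifi27, Lgals3bp and Slfn2. Stat2, Cmpk2 and Ifitm3 did not pass, and Ifitm3 differed by 2.56 ± 0.58 (SE, adjusted p = 0.0501), at 268, 258 and 384 FPKM in KA and 31.4, 20.7 and 97.8 FPKM in AAV control. Lgals3bp, at 1.72, 1.25 and 5.83 FPKM in AAV control, rose by 3.06 ± 0.53 (SE, adjusted p = 0.0186). Slfn2, a Schlafen protein that acts in T cell quiescence, held 9.02, 7.25 and 4.48 FPKM in KA and 1.505, 1.01 and 2.34 FPKM in AAV control and rose by 2.03 ± 0.37 (SE, adjusted p = 0.022). Without the filter 27 of 37 rose, against 4.19% of 21706 genes, and without AAV control #3 as well 35 of 37 did, against 10.6%. Every KA library was above every AAV control library in 34 of 37, against 13.3%. Leaving out one library at a time left between 1 and 8 of the genes above the filter called: the count was 1 without KA #1, 2 without KA #2, 4 without KA #3, 2 without AAV control #1, 4 without #2 and 8 without #3.

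AAV control #3 was less apart in input than in IP. It was above #1 and #2 in 32 of 37 genes, against 33.1% of all genes, with a median ratio of 2.57 to their mean, against 0.877 over all genes. It was below every KA library in 36 of the 37, a count with no share of all genes beside it. Igtp was the exception, at 4.29 FPKM against 4.26, 3.53 and 3.35 FPKM in KA. Microglia markers differed far more between the input groups than between the IP groups. Their sum was 1725 to 2693 FPKM in KA input, 180.1 to 207 FPKM in PBS input and 134 to 303 FPKM in AAV control input, with the highest AAV control value in #3. All 10 of the microglia markers tested rose in KA input, by a median log2 fold change of 3.07 against PBS and 3.01 against AAV control. Lymphocyte markers were low but also highest in KA, at 4.59 to 6.53 FPKM in KA input, 0.699 to 1.08 FPKM in PBS input and 1.69 to 3.19 FPKM in AAV control input. The part of either cell type in the input results was not tested.

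**Figure D4:**
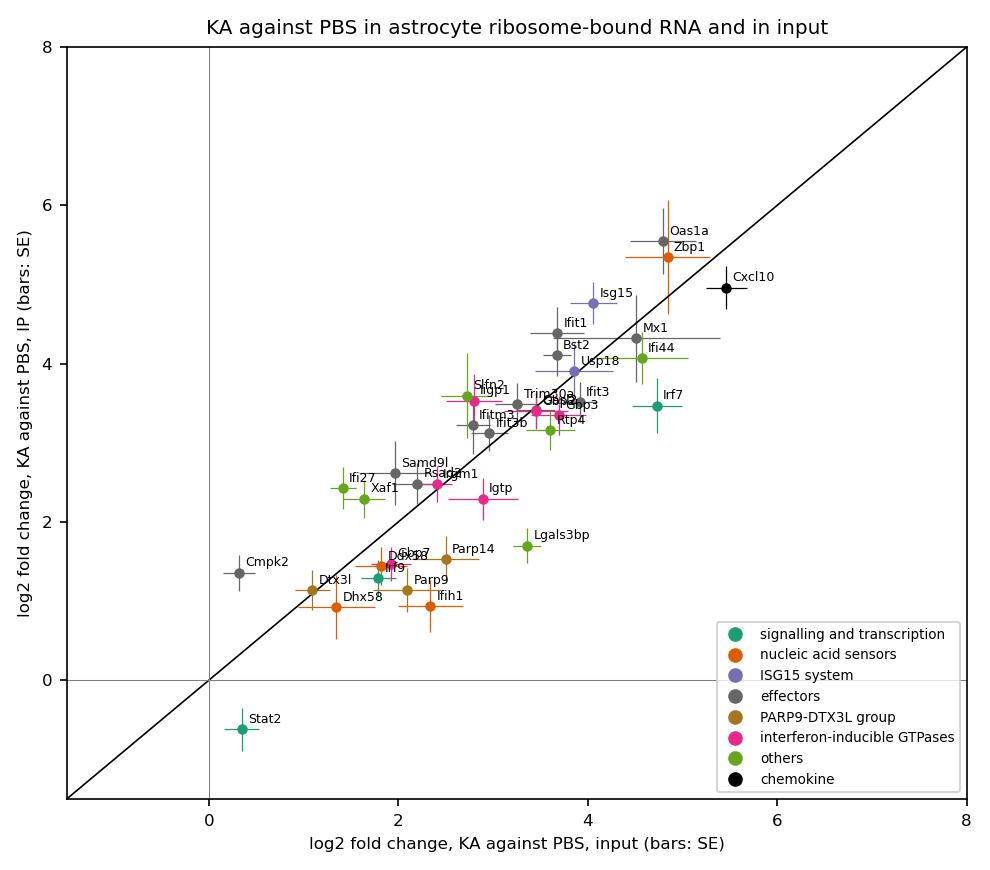
Log2 fold change of KA against PBS for each of the 37 genes in IP (vertical) and in input (horizontal), with bars for the standard error, from the fits without the FPKM filter. Most genes lie at positive values on both axes, with Stat2 near or below 0. Zbp1 and Mx1 rest on 0 to 4 reads per PBS library.

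Whether the KA difference was larger in astrocyte ribosome-bound RNA than in the whole tissue was tested with an interaction term over the IP and input libraries. With PBS as baseline, 9 genes could be tested. Ifi27 had the larger change in IP, by 0.77 ± 0.22 (SE, adjusted p = 0.0218), where 10.8% of 9305 genes did. Lgals3bp had the larger change in input, with an interaction of -1.90 ± 0.23 (SE, adjusted p = 0.000125), where 14.7% did. For 1 gene of 9 in each direction, neither share stands out from all genes, and both calls were lost in one fit over all 18 libraries. The log2 fold change of Lgals3bp was 1.49 in IP and 3.38 in input. The call of Ifi27 was lost without homogenate #1 or #2 of KA or #1 or #3 of PBS. With AAV control as baseline none of the 9 genes passed, against 7.19% of 9180 genes higher and 5.99% lower. Of the 9, 0 had an unadjusted p under 0.05 by edgeR, DESeq2 or limma-voom. By edgeR, 2472 of the 9180 genes had such a p. Without homogenate #3 of AAV control, Ifi27 (0.85, adjusted p = 0.0204) and Lgals3bp (-1.62, adjusted p = 0.000998) passed in the same directions as with the PBS baseline. With the homogenate number as a block, which pairs these libraries, Lgals3bp and Ifit3 did pass as larger in input, by -2.07 ± 0.22 (SE, adjusted p = 4.24e-05) and -0.94 ± 0.27 (SE, adjusted p = 0.0182), against 17.3% of all genes.

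The ratio of IP to input compares ribosome-bound RNA of tagged CA3 cells with the RNA of the whole homogenate. Cell type, hippocampal region and ribosome binding enter it together and cannot be told apart. In KA, 28 genes were above the filter in both fractions, of which 23 were higher in IP and 1 lower, against 19.1% and 15.3% of 10098 genes. In PBS, 8 of 9 were higher in IP, against 28.6% of 10401 genes. In AAV control, 3 of 9 were higher, against 19.4% of 9961 genes. With the homogenate as a block 7 of these 9 were higher, against 30.4%, and without homogenate #3 7 were higher, against 31.7%. The 3 called with all AAV control libraries were Ifit3, by 2.98 ± 0.88 (SE, adjusted p = 0.0315), Ifit3b, by 2.58 ± 0.82 (SE, adjusted p = 0.0417), and Ifi27, by 1.58 ± 0.48 (SE, adjusted p = 0.034). The count of 3 became 0 without the input library of #1 or of #2, 1 without the IP library of #3 and 6 without that of #2. Without the input library of #3 or the IP library of #1 it was 4.

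Cxcl10 had a high ratio in each group. It was 4.63, 5.62 and 5.23 in the KA homogenates, 7.13, 5.89 and 17.4 in PBS, and 6.55, 52.9 and 21.5 in AAV control, where the second rested on 1 input read. In KA it was higher in IP by 2.59 ± 0.15 (SE, adjusted p = 2.68e-05). Slfn2 lay at the other end, with ratios of 0.293, 0.549 and 0.4896 in KA, and it was lower in IP by -1.01 ± 0.28 (SE, adjusted p = 0.023). Irf7 had ratios of 0.674, 0.732 and 0.619 in KA and differed by -0.36 ± 0.14 (SE, adjusted p = 0.0922), and it was lower in IP with the homogenate as a block (adjusted p = 0.0366). Lgals3bp had ratios of 1.04, 1.01 and 1.16 in KA, against 5.33, 3.41 and 3.75 in PBS, with no overlap. The 2 fractions were thus at similar Lgals3bp levels in KA but not in PBS.

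The ratio of the group means had a median over the 37 genes of 1.87 in KA, 2.70 in PBS and 3.92 in AAV control, against 0.824, 0.976 and 0.892 over all genes. It was 2 or more in 16 genes in KA, 22 in PBS and 31 in AAV control, where 5.92%, 16.8% and 14.2% of 13275 genes reached it. The AAV control median and count include homogenate #3, and values without it are not given. In the fits, the median log2 fold change of IP over input was 2.38 in AAV control, over 9 genes tested. It was 1.12 without homogenate #3 and 1.56 in PBS, each over 9 genes. The order of AAV control and PBS thus turned on #3. In KA, all 8 microglia markers tested were lower in IP than in input, by a median log2 of -3.87, while all 9 astrocyte markers and all 6 oligodendrocyte markers were higher. The oligodendrocyte sum was 1279 to 2439 FPKM in KA IP, above each of the KA input libraries, the highest of which held 925 FPKM. The part of these cells in the IP to input ratios was not tested.

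**Figure D5:**
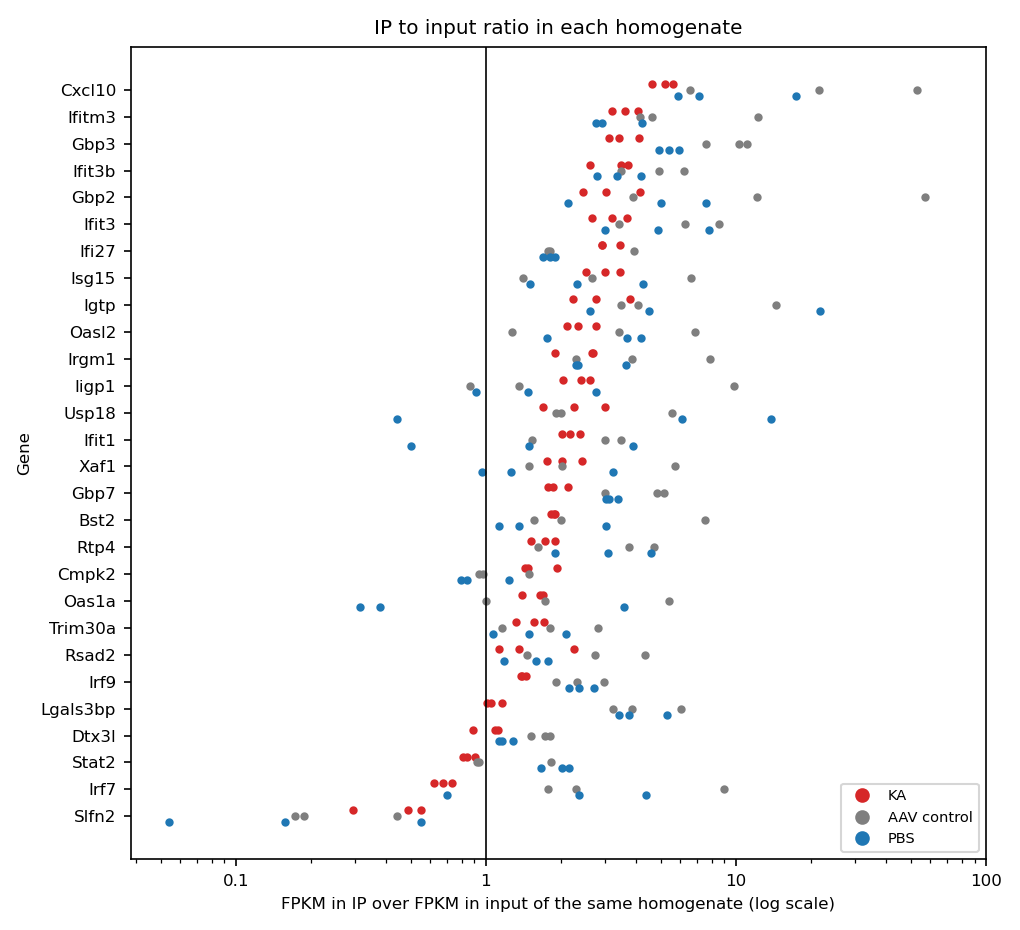
FPKM in IP over FPKM in input of the same homogenate for the 28 genes tested in KA (log scale), with one point per homogenate coloured by group and a line at 1. Points are left out where either library was at 0. Slfn2 lies to the left of the line and Cxcl10 far to the right.

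The upstream pathway was read from a list of 39 genes of interferon signalling, 37 of which were in the files. The interferons themselves were at or near 0 reads. Ifng and Ifnl3 had no read in the 18 libraries, which allows up to 3 counts in each library, and Ifnb1 had 6 reads in all. In KA against PBS IP, 4 of 13 genes of this list above the filter rose and 4 fell, against 18.2% and 18.9% of all genes. Ifngr1 and Ifngr2, the receptor for interferon gamma, rose by 0.94 ± 0.18 (SE, adjusted p = 0.00327) and 0.72 ± 0.18 (SE, adjusted p = 0.0124). Of the type I receptor, Ifnar2 rose by 0.51 ± 0.18 (SE, adjusted p = 0.0495) and Ifnar1 fell, at -0.61 ± 0.22 (SE, adjusted p = 0.0478). Myd88, an adaptor of Toll-like receptors, rose by 1.03 ± 0.21 (SE, adjusted p = 0.00353). Tbk1, Irf3 and Jak2 fell, with log2 fold changes of -0.99, -0.73 and -0.59. Against AAV control in IP, 1 of 13 rose, a share near the 10.4% of all genes, and this was Ifngr2, by 1.02 ± 0.16 (SE, adjusted p = 0.00478). There 2 fell, Irf3 and Jak2. This fit includes AAV control #3. Every KA IP library was above every AAV control library in 6 of the 37 genes and above #1 and #2 in 10. Over 13275 genes with a mean above 1 FPKM these shares were 15.6% and 22.4%. The 37 genes include the interferons at or near 0 reads, which such a mean leaves out. The 2 sets are therefore unlike, and no comparison of the shares is made.

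Irf1, an interferon regulatory factor, held 3.25, 3.33 and 2.64 FPKM in KA IP and 1.302, 1.45 and 7.15 FPKM in AAV control IP. AAV control #3 was the highest of these 6 libraries.

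A list of 50 further interferon-stimulated genes, all of them in the files and also chosen with earlier results known, was read in the same way. In KA against PBS IP 7 of 10 above the filter rose, against 18.2% of all genes, and none fell. Without the filter 35 of 49 rose, against 15.1%. In input 38 of 49 rose without the filter, against 12.6%. Against AAV control 3 of 11 rose in IP with the filter, against 10.4%, and 6 of 49 without it, a share near the 8.11% of all genes. These fits include AAV control #3. Every KA IP library was above every AAV control library in 12 of the 50 genes, against 15.6% of 13275 genes with a mean above 1 FPKM. Every KA IP library was above AAV control #1 and #2 in 40 of the 50, against 22.4%. Ifi35 rose by 2.24 ± 0.26 (SE, adjusted p = 0.000222) and Eif2ak2, which encodes the RNA-activated kinase PKR, by 0.90 ± 0.17 (SE, adjusted p = 0.00249). Ifi27l2a, a relative of Ifi27, held 49.3, 23.6 and 69.2 FPKM in KA IP, 0.404, 0.378 and 5.55 FPKM in PBS IP and 1.86, 1.58 and 44.3 FPKM in AAV control IP.

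AAV control #3 was above every KA IP library in 18 of these 50 genes, a share near the 36.9% of all genes, and at least 2 times the highest KA library in 8. For the 8, no share of all genes is given. The 8 were the GTPases Irgm2, Tgtp1, Tgtp2, Gbp4, Gbp6 and Gbp8 and the chemokines Cxcl9 and Ccl5. Tgtp2 held 0, 0 and 8.24 FPKM in AAV control IP and 0.367, 0.229 and 0.342 FPKM in KA IP. Cxcl9, a second CXCR3 ligand, held 0.0358, 0.104 and 3.13 and 0.506, 0.446 and 0.726 FPKM. Ccl5, a chemokine of T cells, held 0.225, 0.218 and 12.4 and 1.03, 1.4 and 3.61 FPKM. In the same library 14 of the 50 genes were below every KA IP library, a count with no share of all genes beside it.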

How the data were processed

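RNA was sequenced from 9 hippocampal homogenates, each as an IP and an input library. The authors aligned reads to mm10 with STAR, and the submitters' processing notes also name featureCounts and edgeR; versions, annotation and strand setting were not given in the sources used here. The deposited values were raw read counts per gene and FPKM, which the authors had computed from them per transcript length and library depth. No library or column was left out, and no 2 libraries were duplicates.

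Differences were tested on the counts with edgeR 4.0.16 in R 4.3.3 (quasi-likelihood test, TMM scaling), among genes above 1 FPKM in every library of a fit, the filter of the study's methods, with Benjamini-Hochberg adjustment over all genes tested and calls at an adjusted p under 0.05. Each comparison used its own groups. The same test was also run on genes of at least 10 counts summed over the fit, without the FPKM filter. In that form the median log2 fold change of all genes was -0.15 for KA against PBS in IP. Alternatives were DESeq2 1.42.0 and its size factors, limma-voom (limma 3.58.1), a log2 fold of at least 1, one fit over all 18 libraries, replicate number as a block, run as a covariate, and each library left out. Run 1 alone, the AAV control group without homogenate #3, and the fits that left out both the FPKM filter and AAV control #3 were added after the data had been seen. The fits were tested on simulated counts before use.

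The IP and input libraries of one number come from one homogenate, and their deviations from group means correlated at 0.155 to 0.751 over 9001 genes. Same-numbered KA and AAV control libraries correlated at 0.348 to 0.551 and shared a run by the labels. KA and PBS, and PBS and AAV control, shared only a number. Each sample pooled mice, and p-values measure the spread between such pools. With 3 samples a group, an exact permutation test cannot go below p = 0.1, so none is given for single genes.

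The 37 genes and the lists were chosen with earlier results of these data known. The rule for naming took members called in an IP or input comparison and up to 10 more by mean FPKM, and the others are given by range or count; Zbp1 was described in full after its values were seen. Log2 fold changes are given with the standard error. For edgeR it was derived as the absolute log2 fold change over the square root of the F statistic of the test.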

Additional observations from a re-analysis of the deposited data

Results flagged for a closer look

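Of the 9 genes for which the KA difference could be compared between IP and input with PBS as baseline, 2 had an interaction that passed the test. Ifi27 had a log2 fold change that was 0.77 larger in IP than in input, and for Lgals3bp the interaction was -1.90, a larger change in input. Over all genes 10.8% were larger in IP and 14.7% larger in input, so 1 of 9 in each direction is near the background. The call of Ifi27 was lost without homogenate #1 or #2 of KA or #1 or #3 of PBS, and both calls were lost in one fit over all 18 libraries. Each group had 3 homogenates, and the PBS samples were all of run 3. Microglia markers, which summed to 1725 to 2693 FPKM in KA input and 180.1 to 207 FPKM in PBS input, moved with the input difference, and their part in either result was not tested.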

How the results depend on the processing

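The counts of genes called depended on the filter and on AAV control #3, and the cause was not tested beyond the construction of each alternative. For KA above AAV control in IP, the count of 2 became 1 with a log2 fold of at least 1, 4 with DESeq2, 6 with limma-voom, 12 without the FPKM filter, 9 in one fit over all 18 libraries, 10 with the replicate block, 14 with run as a covariate, 17 in run 1 alone, 0 to 17 with one library left out, and 35 without both the filter and AAV control #3. For KA above PBS in IP the count of 17 became 35 without the filter, 15 in one fit over all libraries, and stayed at 17 with a library left out; the 1 gene lower became 0 with the fold threshold, limma-voom, no filter or the block, and was 0 to 1 with a library left out. In input, the 7 genes above AAV control became 27 without the filter, 6 in one fit, 1 to 8 with one library left out and 35 without both the filter and AAV control #3. The 8 above PBS became 35 without the filter, 7 in one fit and 8 to 10 with a library left out.

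For IP above input in KA, 23 became 11 in one fit over all libraries and 22 to 23 with a library left out, and the 1 lower gene became 0 in that fit, 2 with the block and 0 to 1 with a library left out. In AAV control, 3 became 13 without the filter, 7 in one fit, 7 with the block, 7 without homogenate #3 and 0 to 6 with a library left out. In PBS, 8 became 5 with the fold threshold, 23 without the filter and 7 to 9 with a library left out, and the 0 lower became 1 without the filter.

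For the interaction with AAV control, 0 larger in IP became 2 in run 1 alone and 0 to 1 with a homogenate left out, and 0 larger in input became 2 with the block, 1 with run as a covariate, 1 in run 1 alone and 0 to 1. With PBS, 1 larger in IP became 0 with the fold threshold, 2 with DESeq2 or its size factors, 2 without the filter, 0 in one fit, 2 with the block and 0 to 2 with a homogenate left out, and 1 larger in input became 0 in one fit and 1 to 2. For PBS against AAV control the count of 0 in IP became 0 to 2 higher and 0 lower with one library left out, and in input 0 to 2 higher. Without both the filter and AAV control #3 it was 2 higher and 1 lower in IP and 3 higher in input. The replicate block left both at 0. No result changed direction among those called, and the single genes lost their call in 84 of their alternatives and kept it in 810. Genes below 1 FPKM rest on few reads, such as Zbp1 with 0 to 3 reads per PBS IP library, and depth limits what can be said of them.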
